A study of Mus musculus with 6 samples.

Results

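The soft gel was defined here by the genes that it set apart from both stiffer substrates. Mouse dermal fibroblasts taken from the ear had been kept for 3 days on glass, on a polyacrylamide gel of 20 kPa or on a polyacrylamide gel of 1 kPa, with 500000 cells and no further agent named for any group, and polyadenylated RNA was sequenced from 2 libraries per substrate. Glass is far stiffer than either gel and served as the study's control. The sources used here name no strain, sex, age, gel coating or passage, and do not say if the 2 libraries of a substrate stem from different animals or cultures, so the spread between libraries may be technical. The series asks how stiffness shapes the epigenetic state of fibroblasts on their way to induced neurons.

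A gene belonged to the set if it passed both pairwise edgeR tests of 1 kPa, against glass and against 20 kPa, at an adjusted p under 0.05, and if both 1 kPa libraries lay above, or both below, all 4 other libraries in log2 CPM (CPM, the counts of a gene over the scaled library size). Of 57010 identifiers, 16093 had enough counts to be tested and 1716 of these met the rule. The set held 1066 genes higher on 1 kPa (6.62% of tested genes) and 650 lower (4.04%), so that 62.1% of it was higher. With total counts in place of TMM scaling, the split was 882 higher and 854 lower, or 50.8% higher. The genes were thus chosen by their levels on 1 kPa: both comparisons of 1 kPa are given below as descriptions, with no test. Only 20 kPa against glass was not used by the rule, and even it shares its libraries with both.

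Cells read the stiffness of a substrate through integrins and actomyosin tension, which act on transcription through MRTF and SRF, which drive contractile genes, and through YAP and TAZ. NF-kB, a family of dimers held in the cytoplasm by IkB proteins until a signal has those degraded, drives chemokine, cytokine and acute-phase genes in fibroblasts as well as in immune cells, and also its own inhibitors. HIF-1, whose alpha subunit is marked for destruction by oxygen-dependent prolyl hydroxylases, drives glucose uptake, glycolysis and angiogenic signals. Fibroblasts also build and degrade their matrix, through collagens and proteoglycans on one side and matrix metalloproteinases (MMPs) on the other.

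Genes of NF-kB signalling, chemokines, acute-phase proteins, MMPs, and glycolysis and hypoxia stood among the genes higher on the soft gel. Lower on the soft gel were the small leucine-rich proteoglycans Ogn, Omd and Aspn, a few contractile proteins and the imprinted transcripts Mest and H19. Dcn, of the same family as Ogn, was higher, and imprinted genes were not counted as a list. The 1066 higher genes took 7.56% to 8.05% of the counts of the glass libraries, 11.3% to 11.4% on 20 kPa and 15.6% to 15.8% on 1 kPa. The 650 lower genes took 7.51% to 7.69%, 6.53% to 6.58% and 4.90% to 5.01%. Over single genes the differences were mostly small: 217 of the higher and 48 of the lower genes differed at least 2-fold from both other substrates, and 44 and 5 at least 4-fold.

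Some members lay close to the rule's threshold. Acsl3 was just inside, with 0.0499 as the larger of its adjusted p-values and 0.25 as the smaller of its absolute log2 fold changes, and Gm43120 likewise, with 0.0499 and 1.19. Just outside stood Elmo2, at 0.05 and 0.15, and Gmcl1, at 0.0501 and 0.20. Against glass, 23% of tested genes were higher on 1 kPa and 22% lower. Against 20 kPa, 9.92% were higher and 8.94% lower. Another 3 genes passed both tests downward but had overlapping libraries and were left out.

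The libraries held 17669006 to 21350111 counts each, so that 3 counts in a library equal 0.139 to 0.174 CPM. Libraries of a group correlated at 0.992 across genes. Glass replicate 2 had 5.10% of its counts in a single unnamed identifier, against 1.83% to 2.90% in the others; without that library the set held 1110 higher and 764 lower genes. Markers of fibroblasts summed to 20180 to 33000 CPM in every library, and those of keratinocytes to at most 28.8, of Schwann cells and melanocytes to at most 37.3 and of endothelium to at most 244.5. Pericyte and smooth muscle markers summed to 789.3 to 943.3, of which Pdgfrb, also a listed fibroblast marker, gave 436.2 to 562.8. Chondrocyte markers summed to 602.7 to 1718. In bulk RNA, fewer cells of a type and less RNA per cell cannot be told apart.

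The first question was where 20 kPa stood for these genes, since a gene can be set apart on 1 kPa as the end of a graded change or as a step that only the soft gel shows. Among the 1066 higher genes, 600 (56.3%) were also higher on 20 kPa than on glass by the edgeR test, against 22.3% of all tested genes. A further 48 (4.50%) were lower on 20 kPa than on glass, against 19.6% of all tested genes, and 418 were not called. The rule chose these genes by the same glass and 20 kPa libraries, so these shares are descriptions and all tested genes are no matched baseline. The median log2 fold change of the higher genes was 0.98 for 1 kPa against glass, 0.50 for 1 kPa against 20 kPa and 0.37 for 20 kPa against glass, where all tested genes had a median of 0.02.

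Of the lower genes 53.2% were not called between the stiffer substrates, against 39.2% of the higher genes and 58.2% of all tested genes. On 20 kPa, 245 of 650 (37.7%) were lower than on glass, 59 (9.08%) were higher and the other 346 were not called. Their medians were -0.49 against glass, -0.35 against 20 kPa and -0.11 for 20 kPa against glass. A difference from glass could be bounded within 0.5 on the log2 scale, in either direction, for the 20 kPa value of 423 higher genes (39.7%) and 430 lower genes (66.2%), against 44.5% of tested genes; the bound is the 95% interval of the fit and needs at least 5 CPM. For 295 higher (27.7%) and 301 lower genes (46.3%) 20 kPa was both bounded in this way and not called against glass, against 32.3% of tested genes. Genes below 5 CPM cannot be bounded, and these shares were not matched for expression level or for the choice by the rule.

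**Figure D1:**
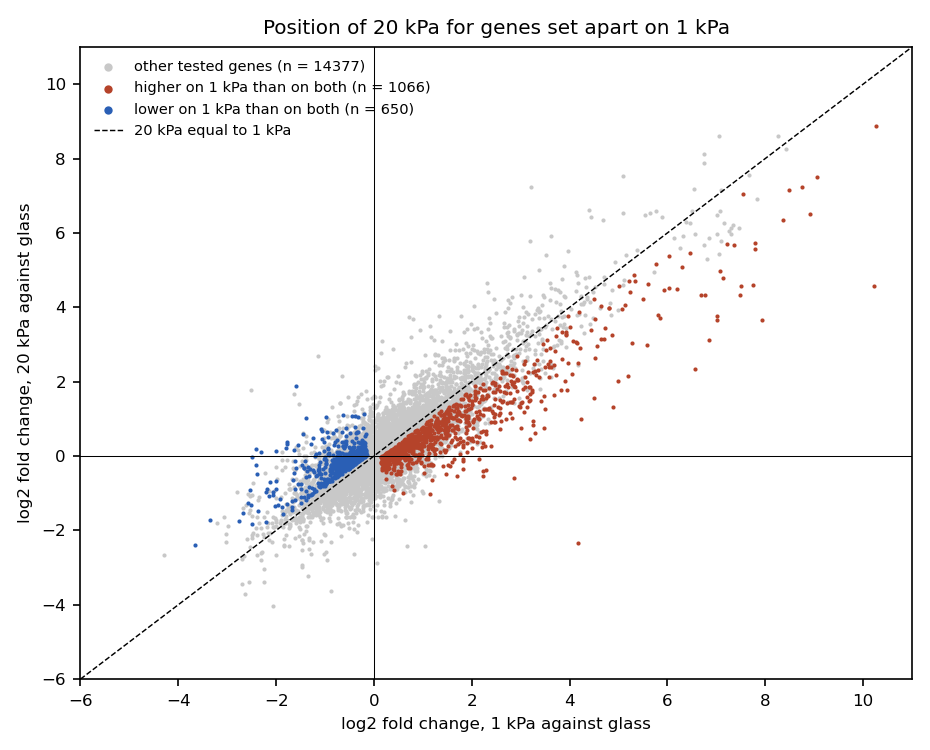
Log2 fold change of 20 kPa against glass (vertical axis) plotted against that of 1 kPa against glass (horizontal axis) for each tested gene; red points are the 1066 genes higher on 1 kPa than on both others, blue points the 650 lower, grey points all other tested genes. The dashed line marks equal levels on both gels, from which the members are set off by the rule; most red points lie above 0 on the vertical axis, where 600 were called higher on 20 kPa than on glass.

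Chemokines, the secreted proteins that draw leukocytes, gave 12 higher genes of 19 tested (63.2%) and none lower. The shares of all tested genes were 6.62% higher and 4.04% lower. Cxcl1, a neutrophil attractant, had 52.4 and 53.9 CPM on glass, then 125 and 128 on 20 kPa and 595 and 599 on the soft gel. Cxcl2, a close relative with the same receptor, had 74.9 and 73.9 CPM on 1 kPa, against 8.53 and 10.4 on 20 kPa and 2.5 and 2.15 on glass. For both, the libraries of the 3 substrates did not overlap, and the step between the gels (log2 fold changes of 2.24 ± 0.06 and 2.97 ± 0.10, here and below with the SE of the fit) exceeded that from glass to 20 kPa (1.25 ± 0.06 and 2.01 ± 0.16). Cxcl3 had 12.5 and 12.8 CPM on glass, then 39.3 and 39.8 on 20 kPa and 164 and 161 on the soft gel, and its groups did not overlap either. The monocyte attractant Ccl7 differed: it had 293 and 276 CPM on 1 kPa, against 123 and 129.7 on 20 kPa and 121 and 144 on glass, so that glass and 20 kPa overlapped. The soft gel stood apart from both, as the rule requires.

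The promoters of Cxcl1, Cxcl2 and Cxcl3 show the NF-kB motif near the start of the gene. Among the other higher chemokines only Cxcl10 had an upstream match. The rest, Ccl7 included, had none or had no promoter in the source. The stretches below come from the RefSeq promoter table of build GRCm38.p6, read in the direction of transcription, 5′ to 3′, and all lie upstream of the annotated start; capitals mark each match to the usual NF-kB consensus, searched on both strands, and adjoining capitals hold overlapping matches. They are shown because Cxcl1, Cxcl2 and Cxcl3 are among the higher genes with the widest gap, Il6 is a cytokine of the set, and Nfkbia and Tnip1 encode inhibitors of the same pathway.
Cxcl1 (chr5:90891134-90891224, plus strand): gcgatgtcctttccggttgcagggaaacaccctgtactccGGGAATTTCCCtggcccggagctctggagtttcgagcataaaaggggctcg
Cxcl2 (chr5:90903762-90903852, plus strand): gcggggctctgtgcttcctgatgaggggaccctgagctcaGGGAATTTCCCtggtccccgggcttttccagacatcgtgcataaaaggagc
Cxcl3 (chr5:90785988-90786078, plus strand): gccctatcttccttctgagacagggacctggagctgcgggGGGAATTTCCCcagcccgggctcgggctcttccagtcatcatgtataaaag
Il6 (chr5:30013030-30013113, plus strand): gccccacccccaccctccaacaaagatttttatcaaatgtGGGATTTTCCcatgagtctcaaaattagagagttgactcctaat
Nfkbia (chr12:55492648-55492716, minus strand): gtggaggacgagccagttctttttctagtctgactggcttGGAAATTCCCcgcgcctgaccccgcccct
Tnip1 (chr11:54962947-54963038, minus strand): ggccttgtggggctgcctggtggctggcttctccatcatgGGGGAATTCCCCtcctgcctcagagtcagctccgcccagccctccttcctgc

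The motif was in 17 of the 37 promoters (45.9%) in the table that belong to higher genes of the chemokine, cytokine, acute-phase and NF-kB lists. It was in 9.20% of the promoters of all higher genes, in 16.1% of those at least 2-fold higher, in 5.58% of those of the lower genes and in 5.05% of the 11168 promoters of tested genes. The AP-1 motif TGANTCA was in 16.1% of the promoters of the genes at least 2-fold higher and in 5.11% of all. The C/EBP motif TTGCNNAA was in 19.7% and 8.20%. A match is a run of letters and not a measured binding site. The listed genes are largely known targets or parts of NF-kB signalling, so the high share may come from how the lists were drawn up. The motif was not counted for genes of these lists outside the set.

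Of 18 cytokines tested, 10 (55.6%) were higher on 1 kPa and none was lower, against 6.62% and 4.04% of all tested genes. Csf3 (ENSMUSG00000038067.3; GRCm38 chromosome 11, 98701263 to 98703629, plus strand), the granulocyte growth factor G-CSF, had 0.694 and 0.464 CPM on glass, then 2.97 and 3.05 on 20 kPa and 58.8 and 53.8 on the soft gel. Its step between the gels was 4.22 ± 0.12 on the log2 scale. Lif, a member of the interleukin-6 family, had 147 and 144 CPM on 1 kPa, against 31.9 and 32.4 on 20 kPa and 10.2 and 8.64 on glass, and Il6 had 15.0 and 18.7 CPM on glass, then 43.9 and 48.4 on 20 kPa and 140.3 and 133 on the soft gel. In each of these genes all libraries of 20 kPa lay between those of glass and of 1 kPa. Il1b and Csf2 were at the limit of detection: Il1b was not counted on glass, and its 1 kPa level was at least 9.46-fold higher than the 3 counts over both glass libraries that a count of 0 allows; Csf2 exceeded 20 kPa by a ratio of 12.9 (95% counting interval 4.07 to 65.4).

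NF-kB subunits and feedback genes gave 17 higher genes of 21 tested (81%) and none lower, against 6.62% and 4.04% of all tested genes. These included the subunits Relb, Nfkb1 and Nfkb2 and the inhibitors Nfkbia, Nfkbie, Tnip1 and Tnfaip3. Nfkbia, which encodes the inhibitor IkB-alpha, had 121 and 129 CPM on 1 kPa, against 47.8 and 44.7 on 20 kPa and 32.7 and 32.8 on glass. Tnfaip3, the ubiquitin-editing inhibitor A20, had 11.3 and 10.4 CPM on glass, then 13.2 and 14.5 on 20 kPa and 42.1 and 39.0 on the soft gel. In both, 20 kPa was higher than glass by a small margin (log2 fold changes of 0.50 ± 0.07, edgeR adjusted p = 2.28e-06, and 0.35 ± 0.11, adjusted p = 0.0139), and the larger step lay between the gels, at 1.43 and 1.55. Traf1 and Nfkbiz, a signalling adaptor and a nuclear IkB protein, went the other way on 20 kPa. Nfkbiz had 173 and 174 CPM on 1 kPa, against 66.2 and 65.2 on 20 kPa and 76.7 and 77.1 on glass, and its 20 kPa level was below that of glass (-0.23 ± 0.06, adjusted p = 0.00394).

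Acute-phase and antimicrobial genes gave 11 higher genes of 13 tested (84.6%) and none lower, against 6.62% and 4.04% of all tested genes. In all 11 the level on 20 kPa was higher than on glass. Nos2 (ENSMUSG00000020826.10; GRCm38 chromosome 11, 78920787 to 78960254, plus strand), the inducible nitric oxide synthase, had 0.0925 and 0.116 CPM on glass, then 2.83 and 2.32 on 20 kPa and 133 and 129.5 on the soft gel. Each glass library held 2 Nos2 counts, so only the step between the gels is well measured, at 5.67 ± 0.11 on the log2 scale. Saa3, a serum amyloid made outside the liver, had 1952 and 1778 CPM on 1 kPa, against 635 and 681 on 20 kPa and 12.02 and 13.1 on glass. Hp, which encodes haptoglobin, had 14.9 and 14.5 CPM on glass, then 225 and 227 on 20 kPa and 508 and 483 on the soft gel. For Saa3 and Hp the step from glass to 20 kPa (5.71 ± 0.08 and 3.94 ± 0.07) exceeded that between the gels (1.5 ± 0.06 and 1.13 ± 0.06), the reverse of Nos2 and of the chemokines above.

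Prostaglandin genes gave 6 higher genes of 14 tested (42.9%) and none lower, against 6.62% higher and 4.04% lower among all tested genes. Ptgs2, the inducible cyclooxygenase, had 589.9 and 576 CPM on 1 kPa, against 297 and 296 on 20 kPa and 169.5 and 188 on glass, and Ptges, which makes prostaglandin E, had 37.9 and 38.6 CPM on glass, then 96.5 and 88.7 on 20 kPa and 194 and 196 on the soft gel. Of the complement genes 3 of 13 (23.1%) were higher and 1 (7.69%) was lower. Of the interferon-response genes 9 of 26 (34.6%) were higher and 1 (3.85%) was lower, against the same shares of all tested genes. C3, the central complement component, had 3422 and 3441 CPM on 1 kPa, against 2310.0 and 2183 on 20 kPa and 431 and 382 on glass, most of its difference already present on 20 kPa (2.47 ± 0.07).

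Macrophage and leukocyte markers were counted beside these results. Of 12 listed, 6 could be tested, and Cd14, the lipopolysaccharide co-receptor, was the only member of the set. Their summed level was 17.4 to 18.1 CPM on glass, 25.9 to 28.8 on 20 kPa and 56.6 to 56.9 on 1 kPa, of which Cd14 alone gave 41.3 and 43.8 CPM on 1 kPa. Ptprc, the pan-leukocyte marker CD45, had 2 to 5 counts in every library, and the macrophage marker Adgre1 had 3 to 14. Other markers of the list were counted more often: Cd68 had 64 to 93 counts per library, Csf1r 39 to 80 and Lyz2 60 to 157. Whether macrophages had a part in these values was not tested.

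**Figure D2:**
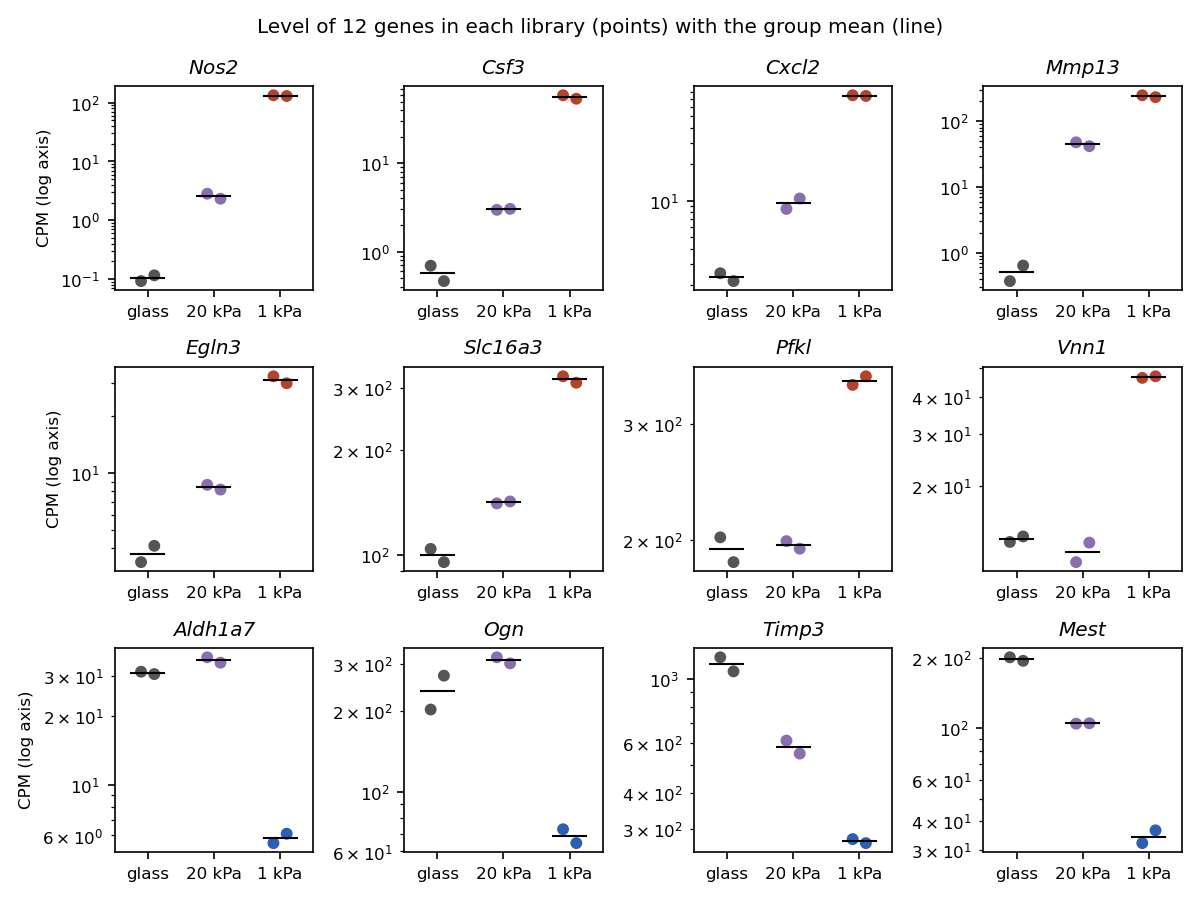
CPM on a log axis in each library (points) with the group mean (line) for 12 members, by substrate. Nos2, Csf3, Cxcl2, Mmp13, Egln3 and Slc16a3 are lowest on glass, higher on 20 kPa and highest on 1 kPa. For Pfkl and Vnn1 glass and 20 kPa lie together. In Aldh1a7, Ogn, Timp3 and Mest both 1 kPa libraries lie below all others, as the rule requires.

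Matrix-degrading enzymes were mostly graded. Of 17 MMPs tested, 9 were higher on 1 kPa and none lower, and without 20 kPa replicate 2 the count was 3, with 6 without the other 20 kPa library or without either 1 kPa library and 5 by DESeq2. The 9 made up 52.9% of the MMPs tested, against 6.62% higher among all tested genes. Of the 9, 8 were higher on 20 kPa than on glass. Mmp13, a collagenase, had 0.37 and 0.638 CPM on glass, then 47.7 and 41.7 on 20 kPa and 248 and 232 on the soft gel. Mmp3, stromelysin-1, which cleaves proteoglycans and activates other MMPs, had 6456 and 6359.9 CPM on 1 kPa, against 1385 and 1383 on 20 kPa and 28.9 and 29.4 on glass. Both rose from glass to 20 kPa by more (6.5 ± 0.16 and 5.57 ± 0.08 on the log2 scale, adjusted p = 1.22e-23 and 1.18e-29) than they differed between the gels (2.42 ± 0.07 and 2.21 ± 0.06). Mmp12, the macrophage elastase, had 1 count on glass over both libraries and exceeded it on 1 kPa by a ratio of 276 (95% counting interval 49 to 10900).

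Their inhibitors did not follow 1 direction. Timp3, a matrix-bound inhibitor of metalloproteinases, had 1192 and 1064 CPM on glass, then 609.8 and 549 on 20 kPa and 276 and 267 on the soft gel, lower with each softer substrate. Timp2 was also lower on 1 kPa, at 1140.1 and 1166 CPM against 1577 and 1519.5 on 20 kPa and 1727 and 1557 on glass. Timp1 was higher, with 1407 and 1428 CPM on 1 kPa, against 1105 and 1151 on 20 kPa and 602 and 560.4 on glass. Of the ADAMTS proteases, Adamts1, Adamts5 and Adamts7 were higher on 1 kPa; Adamts7, which degrades the cartilage protein COMP, had 12.3 and 13.9 CPM on glass, then 31.9 and 30.6 on 20 kPa and 64.3 and 62.8 on the soft gel.

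Glycolysis and hypoxia genes had the highest share among the 34 lists counted, with 23 of 25 higher (92%) and none lower. The shares of all tested genes were 6.62% and 4.04%. Over these 23 the median log2 fold change was 0.68 against glass and 0.72 against 20 kPa, but -0.06 for 20 kPa against glass. Of the 23, 8 were higher on 20 kPa than on glass, while 9 were lower and 6 were not called. Car9, Ankrd37, Egln3 and Vegfa stood at the upper end of this range, and Adm, Gapdh, Pgam1 and Aldoa at the lower end.

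At the graded end, Car9, a carbonic anhydrase that exports acid, had 164 and 171 CPM on 1 kPa, against 67.8 and 67.7 on 20 kPa and 19.0 and 18.3 on glass. Egln3, an oxygen-sensing prolyl hydroxylase, had 3.38 and 4.12 CPM on glass, then 8.68 and 8.19 on 20 kPa and 32.6 and 29.98 on the soft gel. Vegfa, the angiogenic growth factor, had 378 and 389 CPM on 1 kPa, against 207 and 213 on 20 kPa and 122 and 121 on glass. Bnip3, a mitophagy receptor, had 56.0 and 58.7 CPM on glass, then 65.9 and 64.9 on 20 kPa and 123 and 123 on the soft gel. In these 4 genes every 20 kPa library lay between glass and 1 kPa, although Bnip3 on 20 kPa lay much closer to glass. Hif1a, the HIF-1 alpha subunit, which was not in the list, was also a member but with most of its difference already on 20 kPa: it had 526 and 510.1 CPM on 1 kPa, against 449 and 434 on 20 kPa and 256 and 277 on glass.

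In the middle stood enzymes that were not called between glass and 20 kPa. Pfkl (ENSMUSG00000020277.11; GRCm38 chromosome 10, 77986947 to 78010083, minus strand), a phosphofructokinase that commits sugar to glycolysis, had 201.7 and 185 CPM on glass, then 199 and 194 on 20 kPa and 344 and 354 on the soft gel; 20 kPa differed from glass by 0.02 (95% interval -0.10 to 0.14). Ero1l, an oxidase of the endoplasmic reticulum, had 122 and 123 CPM on 1 kPa, against 63.5 and 60.8 on 20 kPa and 63.4 and 66.4 on glass, and Pdk1, which keeps pyruvate out of mitochondria, had 64.9 and 67.1 CPM on glass, then 63.5 and 64.1 on 20 kPa and 106 and 104 on the soft gel. For Pfkl and Ero1l the glass and 20 kPa libraries overlapped, and for all 3 both 1 kPa libraries stood above, as the rule requires.

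At the far end the order of the stiffer substrates was inverted. Slc2a1, the glucose transporter GLUT1, had 229 and 238 CPM on 1 kPa, against 124 and 121 on 20 kPa and 148 and 144 on glass, and was lower on 20 kPa than on glass (-0.25 ± 0.06, adjusted p = 0.000726). Gapdh had 1947 and 1856 CPM on glass, then 1463 and 1471 on 20 kPa and 2050.1 and 2218 on the soft gel (-0.37 ± 0.06 for 20 kPa against glass), so its 1 kPa value exceeded glass by only 0.17. Pgk1 and Pgam1, which follow Gapdh in the glycolytic chain, were likewise lower on 20 kPa than on glass, with log2 fold changes of -0.33 ± 0.06 and -0.35 ± 0.06. Adm, the vasodilator peptide adrenomedullin and a hypoxia target, showed the widest inversion, with 112 and 107 CPM on 1 kPa, against 41.8 and 45.0 on 20 kPa and 84.0 and 80.4 on glass. Its level on 20 kPa differed from that on glass by -0.92 ± 0.07 on the log2 scale (adjusted p = 1.83e-12). The 2 genes of the list outside the set were Pkm, which had its highest libraries on 1 kPa but did not pass against glass, and Ndrg1.

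**Figure D3:**
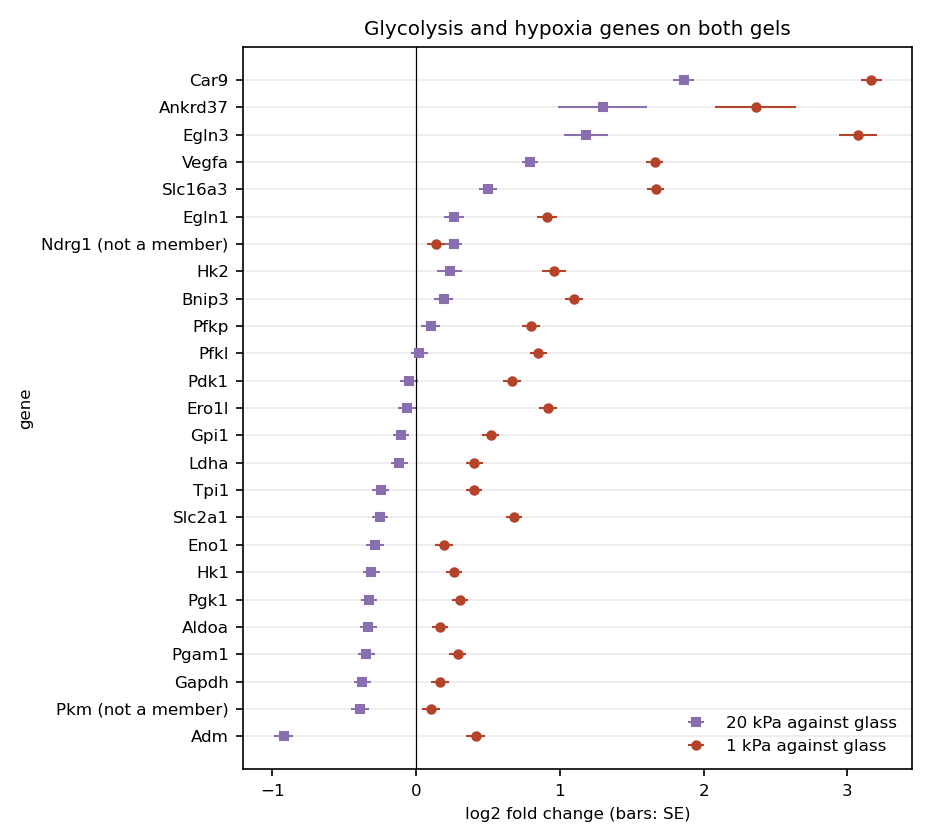
Log2 fold change with its SE against glass for each of the 25 tested genes of the glycolysis and hypoxia list, on 20 kPa (squares) and on 1 kPa (circles). Circles lie to the right of squares for every gene but Ndrg1, whereas the squares run from 1.86 for Car9 to -0.92 for Adm.

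The hypoxia-response core ACGTG lay in 12 of the 22 promoters (54.5%) found for these 23 genes, against 25.2% of all 11168 promoters, 22.7% of those of the higher genes and 27.3% of those of the lower genes. It was searched on both strands and overlaps the E-box CACGTG, which other factors bind. The list was drawn up around known hypoxia and glycolysis genes, so its share may come from that choice. The upstream stretches below, from the same table and build and in the direction of transcription, carry it in capitals (as CACGT where it lies on the other strand, and as CACGTG where both strands match); they are shown for genes from the graded end of the list (Egln3 and Bnip3) and from the inverted end (Pgk1 and Pgam1).
Egln3 (chr12:54204059-54204124, minus strand): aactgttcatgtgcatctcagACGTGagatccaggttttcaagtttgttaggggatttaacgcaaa
Bnip3 (chr7:138909569-138909654, minus strand): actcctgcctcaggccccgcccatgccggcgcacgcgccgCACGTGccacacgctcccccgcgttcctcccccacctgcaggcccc
Pgk1 (chrX:106186910-106187013, plus strand): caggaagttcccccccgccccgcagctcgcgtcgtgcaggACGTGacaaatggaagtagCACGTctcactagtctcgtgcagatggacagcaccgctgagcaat
Pgam1 (chr19:41911717-41911801, plus strand): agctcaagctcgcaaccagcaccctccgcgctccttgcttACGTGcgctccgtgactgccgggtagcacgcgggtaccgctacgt

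Beyond the lists, examples were taken from the 295 higher and 301 lower genes that were not called between glass and 20 kPa and were bounded there within 0.5. Dgat2 and Vnn1 had the largest differences among these higher genes, and all genes of this paragraph were chosen after their values were seen. Dgat2, which completes triglyceride synthesis, had 12.1 and 9.86 CPM on glass, then 14.1 and 12.3 on 20 kPa and 51.9 and 50.4 on the soft gel. Vnn1, a pantetheinase that yields cysteamine, had 46.4 and 47.0 CPM on 1 kPa, against 11.1 and 12.9 on 20 kPa and 12.9 and 13.5 on glass. The log2 fold change of 20 kPa against glass was 0.25 for Dgat2 (95% interval 0.01 to 0.49) and -0.14 for Vnn1 (-0.37 to 0.08), against 1.95 and 1.96 between the gels. Gch1, which starts the synthesis of the nitric oxide synthase cofactor tetrahydrobiopterin, had 21.7 and 20.4 CPM on glass, then 20.8 and 24.0 on 20 kPa and 46.3 and 46.3 on the soft gel. Ptch1, the Hedgehog receptor and a target of that pathway, had 51.5 and 49.1 CPM on 1 kPa, against 28.6 and 27.5 on 20 kPa and 24.7 and 26.5 on glass. Downward, Dkk3, a secreted Dickkopf family protein, had 261 and 249 CPM on glass, then 274 and 264 on 20 kPa and 133 and 135 on the soft gel, and Mertk, a receptor for dying cells, had 5.26 and 3.98 CPM on 1 kPa, against 10.04 and 8.19 on 20 kPa and 9.15 and 9.51 on glass.

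Among the lower genes with a named symbol and at least 5 CPM in the higher group, the widest gap was that of Aldh1a7 (ENSMUSG00000024747.4; GRCm38 chromosome 19, 20692953 to 20727562, minus strand), an aldehyde dehydrogenase, with 31.3 and 30.6 CPM on glass, then 36.2 and 34.3 on 20 kPa and 5.56 and 6.11 on the soft gel. It has close relatives in the Aldh1a family, so its counts may be shared with them. On 20 kPa it was not called against glass (0.19 ± 0.09, adjusted p = 0.0799). Atp6v0a4, a subunit of the vacuolar proton pump, had 1.51 and 1.35 CPM on 1 kPa, against 7.21 and 5.38 on 20 kPa and 5.64 and 5.86 on glass. Others of the 12 with the widest gap were graded: Pkp1, a desmosomal plaque protein, had 41.3 and 34.6 CPM on glass, then 14.9 and 15.4 on 20 kPa and 6.97 and 6.39 on the soft gel, and Mest, an imprinted hydrolase gene expressed from the paternal allele, had 32.2 and 36.5 CPM on 1 kPa, against 105 and 105 on 20 kPa and 201.2 and 194 on glass.

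Elastic fibre genes and small proteoglycans gave 6 lower (25%) and 4 higher genes (16.7%) of 24 tested, against 4.04% and 6.62% of all tested genes. The higher count was 1 with total counts, 0 without 1 kPa replicate 1 or without 20 kPa replicate 2, and 1 to 2 without the other library of either gel. Ogn (osteoglycin), Omd (osteomodulin) and Aspn (asporin), 3 small leucine-rich proteoglycans, were the lower genes of this list with the widest gap. Ogn had 203 and 272 CPM on glass, then 318 and 302 on 20 kPa and 72.6 and 64.5 on the soft gel, Omd had 4.63 and 5.16 CPM on 1 kPa, against 25.3 and 26.8 on 20 kPa and 10.2 and 15.6 on glass, and Aspn had 95.1 and 123 CPM on glass, then 250.7 and 221 on 20 kPa and 72.0 and 68.0 on the soft gel. In all 3, 20 kPa was the highest substrate and 1 kPa the lowest, and 20 kPa differed from glass by 0.39 ± 0.08, 1.03 ± 0.13 and 1.11 ± 0.08 on the log2 scale (adjusted p = 0.000242, 1.11e-07 and 8.88e-13). Dcn (decorin), of the same family, was instead higher on 1 kPa: it had 3766 and 3318 CPM on 1 kPa, against 2960.1 and 2866 on 20 kPa and 144 and 171 on glass.

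The same order, 20 kPa above glass above 1 kPa, was found for H19 (ENSMUSG00000000031.18; GRCm38 chromosome 7, 142575529 to 142578143, minus strand), an imprinted non-coding RNA expressed from the maternal allele, with 91.0 and 87.5 CPM on glass, then 195 and 197 on 20 kPa and 76.9 and 78.6 on the soft gel. It was also found for the collagen gene Col11a1, with 245 and 236 CPM on 1 kPa, against 527 and 509 on 20 kPa and 365 and 344 on glass, for Cnmd (chondromodulin), with 30.5 and 28.9 CPM on glass, then 51.9 and 49.0 on 20 kPa and 21.1 and 18.8 on the soft gel, and for Ptn (pleiotrophin), with 17.3 and 15.4 CPM on 1 kPa, against 44.6 and 50.8 on 20 kPa and 20.9 and 24.2 on glass. For H19, the difference between the gels was -1.33 ± 0.06 and that between 1 kPa and glass only -0.20 ± 0.06. Chondrocyte markers, counted beside these genes, had another order, with their sum lowest on glass. It was 602.7 to 640.4 CPM on glass, 946.9 to 974.5 on 1 kPa and 1654 to 1718 on 20 kPa. Against glass, 7 of the 11 tested markers were higher on 1 kPa, while all 11 were lower on 1 kPa than on 20 kPa. Of those, only Sox9 and Cnmd were also lower than on glass and so entered the set. Whether these values have a part in the lower genes was not tested.

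Contractile and MRTF/SRF genes gave 7 lower genes of 24 tested (29.2%) and none higher, against 4.04% lower and 6.62% higher among all tested genes. Acta2, smooth muscle alpha-actin, had 795 and 789.5 CPM on glass, then 374 and 387 on 20 kPa and 297 and 324 on the soft gel. Myh10, a non-muscle myosin heavy chain, had 155 and 149 CPM on 1 kPa, against 226 and 212 on 20 kPa and 263 and 241 on glass, and Myl9, a myosin light chain, had 64.5 and 62.8 CPM on glass, then 46.1 and 47.2 on 20 kPa and 33.8 and 36.1 on the soft gel. Acta2 was already lower on 20 kPa (-1.06 ± 0.06, adjusted p = 1.93e-15) and differed between the gels by -0.29, whereas for Myh10 the step between the gels (-0.53 ± 0.06) exceeded that from glass to 20 kPa (-0.20 ± 0.06). Over the whole list, 22 of 24 genes were lower than glass on 1 kPa and 22 on 20 kPa, while between the gels 8 were lower and 3 higher on 1 kPa. Actb had 1889 and 1955 CPM on 1 kPa, against 1918 and 1992 on 20 kPa and 3209.6 and 2892 on glass; it was no member.

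Lists of the nuclear envelope and the cell cycle had no members. The nuclear lamina and LINC list had 0 of 14, S phase 0 of 25 and G2 and mitosis 0 of 25, against 6.62% higher and 4.04% lower among all tested genes. Yet all 25 G2 and mitosis genes were lower than on glass on each gel, and 12 were higher on 1 kPa than on 20 kPa. Against glass, 9 lamina and LINC genes were lower and 2 higher on 1 kPa, and 11 were lower on 20 kPa. For S phase, 12 were lower on 1 kPa and 16 on 20 kPa. Of all tested genes 22% were lower than on glass on 1 kPa and 19.6% on 20 kPa, and 9.92% were higher on 1 kPa than on 20 kPa. Cholesterol synthesis gave 1 lower gene of 23, Cyp51, with 196 and 206 CPM on glass, then 84.4 and 84.0 on 20 kPa and 75.9 and 66.5 on the soft gel, although all 23 were lower than on glass on each gel. Integrin and focal adhesion genes gave 2 higher (8.70%) and 1 lower (4.35%) of 23, and YAP/TAZ targets 3 (13.6%) and 1 (4.55%) of 22, beside the same 6.62% and 4.04%. Ccn1 and Ccn2, the usual YAP target genes, were no members: Ccn1 had 625 and 607 CPM on 1 kPa, against 569 and 582 on 20 kPa and 981 and 901 on glass, and Ccn2 had 598 and 567 CPM on glass, then 1006 and 947 on 20 kPa and 878 and 884 on the soft gel.

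**Figure D4:**
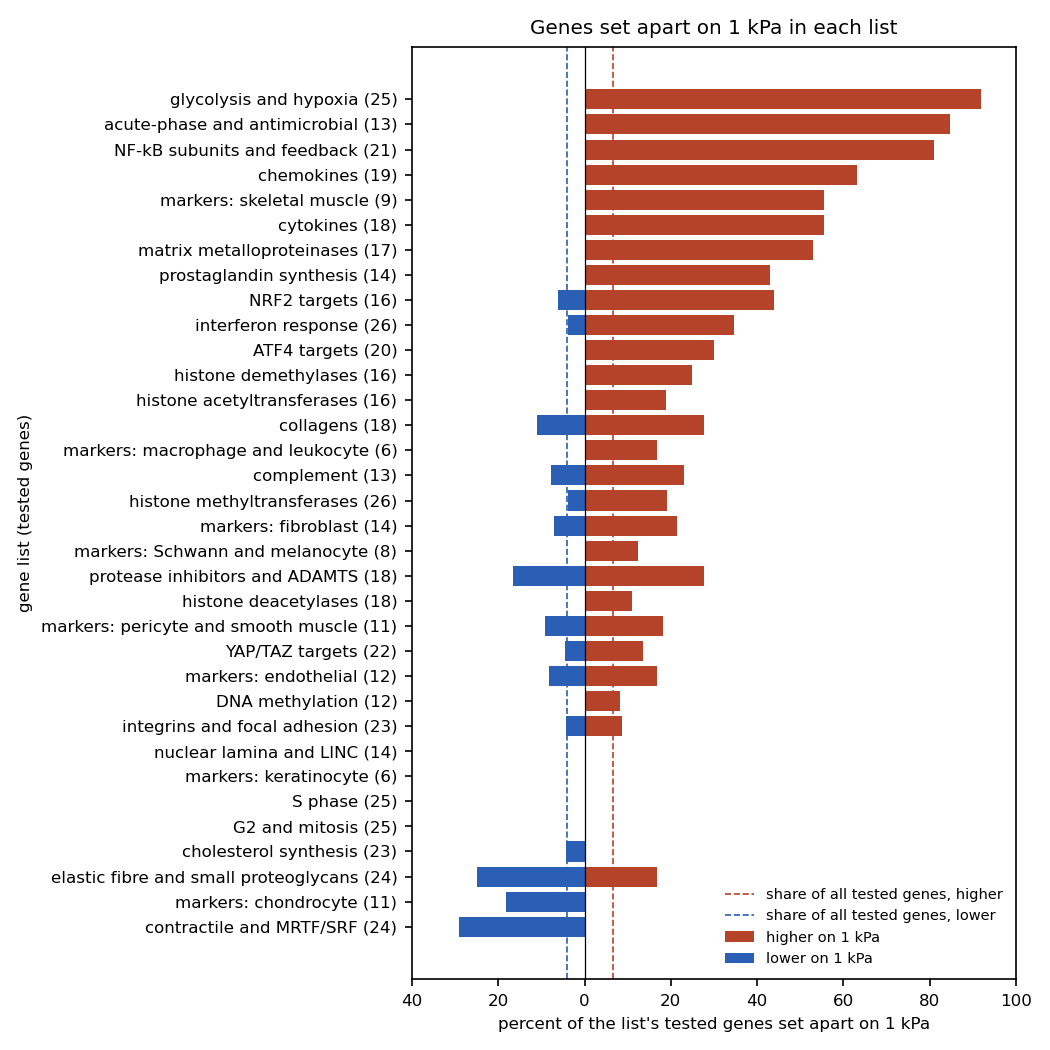
Percent of the tested genes of each list (number in brackets) that were higher (red, to the right) or lower (blue, to the left) on 1 kPa than on both other substrates, with dashed lines at the shares of all tested genes, 6.62% and 4.04%. Glycolysis and hypoxia (92.0%), acute-phase (84.6%) and NF-kB genes (81.0%) have the longest bars to the right, contractile genes (29.2%) the longest to the left.

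Chromatin enzymes, which write and erase the epigenetic marks that the series is about, entered the set with small differences. Histone acetyltransferases gave 3 higher genes of 16, Crebbp, Ep300 and Kat2a, and none lower. Ep300 (p300) had 121 and 117 CPM on 1 kPa, against 109 and 99.7 on 20 kPa and 109 and 104 on glass, Crebbp (CBP) had 77.5 and 72.0 CPM on glass, then 77.7 and 74.9 on 20 kPa and 88.0 and 93.0 on the soft gel, and Kat2a (GCN5) had 66.2 and 69.4 CPM on 1 kPa, against 58.0 and 58.0 on 20 kPa and 57.3 and 55.5 on glass. In these 3 genes 20 kPa differed from glass by -0.03 to 0.04 on the log2 scale, and 1 kPa exceeded both by 0.16 to 0.27. The count was 1 with total counts, 0 without 1 kPa replicate 2 or without 20 kPa replicate 2, 1 without the other library of either gel, and 2 without glass replicate 2.

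Histone demethylases gave 4 higher genes of 16 and none lower. Kdm4b, which acts on H3K9, had 46.6 and 38.3 CPM on glass, then 52.6 and 53.3 on 20 kPa and 70.6 and 72.1 on the soft gel, and Kdm6b, which acts on H3K27, had 97.2 and 88.5 CPM on 1 kPa, against 78.2 and 77.6 on 20 kPa and 69.3 and 64.7 on glass. Kdm3a, an H3K9 demethylase and hypoxia target, had 57.6 and 58.9 CPM on glass, then 62.4 and 61.5 on 20 kPa and 80.2 and 81.5 on the soft gel. As the rule requires, the 1 kPa libraries lay above all others in each of these 3. The log2 fold changes of these genes against 20 kPa were 0.25 to 0.43. Without a library of either gel the count was 2 to 3. Histone deacetylases gave 2 higher of 18, Hdac5 and Hdac7, methyltransferases 5 higher and 1 lower of 26, and DNA methylation genes 1 higher of 12, the oxidase Tet3. The higher shares of these lists were 11.1%, 19.2% and 8.33%, and those of the acetyltransferases and demethylases 18.8% and 25%, against 6.62% of all tested genes. Hdac1 had 136 and 134 CPM on 1 kPa, against 139 and 132 on 20 kPa and 143 and 145 on glass, so the libraries of both gels overlapped and glass lay above them. Against glass it was called neither on 1 kPa (-0.09, edgeR adjusted p = 0.23) nor on 20 kPa (-0.08, edgeR adjusted p = 0.296).

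Some members of 1 direction lay beside each other along the genome. With positions from GENCODE M21 on GRCm38, 381 of the 1061 placed higher genes (35.9%) had another higher gene within 100 kb, and so did 23% of the 15797 placed tested genes. Another lower gene was as near for 124 of the 648 placed lower genes (19.1%) and for 12.6% of the tested genes. Runs of at least 3 neighbours held 185 higher genes in 54 runs and 30 lower genes in 8. Such runs were not counted for other sets of tested genes, so these counts have no background. On chromosome 9, from 7272514 to 7510240, Mmp13, Mmp12, Mmp1b, Mmp3 and Mmp10 were the only tested genes and all 5 were members. On chromosome 7, from 46711998 to 46855627, the serum amyloid genes Saa3, Saa1 and Saa2 and the lactate dehydrogenase gene Ldha were members, and the 3 tested genes between them were not. Saa1 and Saa2 are near-identical, so their counts are uncertain. On chromosome 13, from 49544443 to 49624501, Aspn, Omd and Ogn formed a lower run with 1 other tested gene, Cenpp, that was no member.

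A run of skeletal muscle myosin genes on chromosome 11, from 67078300 to 67308634, held Myh3, Myh1, Myh4 and Myh8, all higher on 1 kPa. Their levels were low: Myh1 had 0.0462 and 0.058 CPM on glass, then 2.1 and 1.5 on 20 kPa and 7.41 and 8.13 on the soft gel, and it exceeded glass by a ratio of 150 (95% counting interval 41.3 to 1250). These myosins are close copies, and reads may be shared between them. Of 9 tested muscle markers, 5 were members (2 without 20 kPa replicate 2 or by DESeq2, and 3 without any other library of a gel), and their sum was 17.98 to 19.5 CPM on glass, 29.4 to 34.2 on 20 kPa and 51.6 to 51.8 on 1 kPa. Of the muscle regulators, Myog had 35 and 11 counts on 1 kPa, against 19 and 9 on 20 kPa and 1 and 2 on glass, Myod1 had 0 to 7 per library and Pax7, the satellite cell factor, 0. Chrna1, a subunit of the muscle acetylcholine receptor, had 48 and 41 counts on 1 kPa, against 44 and 26 on 20 kPa and 3 and 6 on glass; neither Myog nor Chrna1 was a member. All 5 muscle markers in the set were higher on 1 kPa, 55.6% of those tested against 6.62% of all tested genes. Whether muscle cells had a part in these values was not tested.

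**Figure D5:**
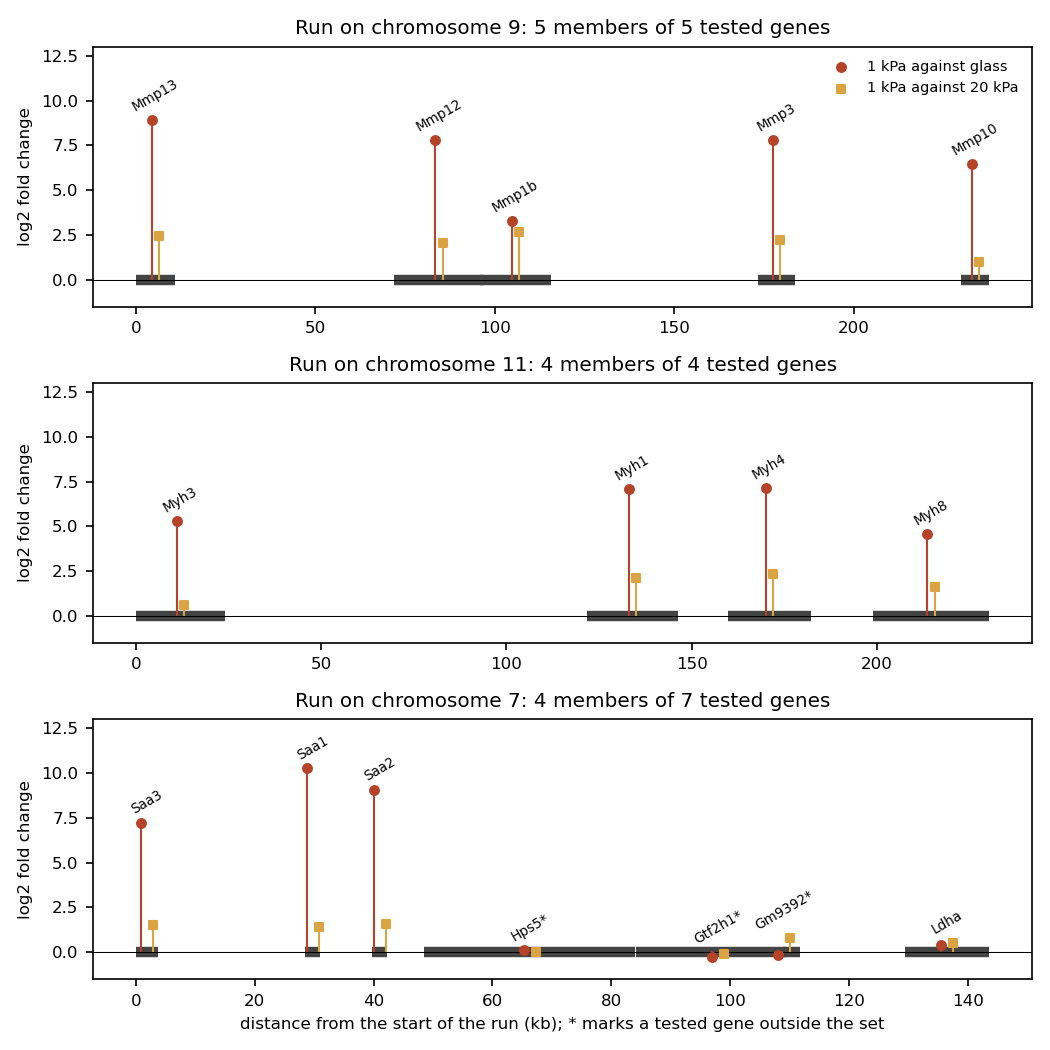
Runs of neighbouring genes higher on 1 kPa, with distance from the start of the run in kb on the horizontal axis, gene bodies as dark bars, and log2 fold changes of 1 kPa against glass (circles) and against 20 kPa (squares). In the run on chromosome 9 all 5 tested genes are members; on chromosome 7 the 3 genes marked with an asterisk lie among members and are near 0 against glass. Fold changes of Saa1, Saa2, Myh4, Mmp12 and Mmp10 against glass rest on 0 or 1 glass count and are not bounds.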

How the data were processed

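Whole-number counts per gene were deposited by the authors as raw counts, with no normalisation. Per the submitters' processing notes, Trim Galore, cutadapt, STAR 2.7.10b, featureCounts and mm10 were used. The sources used here give neither their settings nor the annotation or the use of strand, so overlapping genes and near-identical copies are uncertain. Symbols and positions came from GENCODE M21 (GRCm38), which matched 98.2% of tested identifiers.

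Groups and replicate numbers came from the sample titles. Genes were filtered with filterByExpr by group, scaled with TMM and fitted in edgeR 4.0.16 (glmQLFit and glmQLFTest, R 4.3.3) on all 6 libraries, with group as the only term, 3 residual degrees of freedom and Benjamini-Hochberg adjustment over 16093 genes. The common biological coefficient of variation was 4.98%. Log2 CPM for the overlap rule used a prior count of 2. The SE (after ±) is the absolute log2 fold change over the square root of F. Intervals over counts are exact and, like the floor of 3 counts, cover counting error only, because the reads carry no molecular identifiers. With 2 libraries a group, an exact permutation test of a single value cannot go below 0.333, or 0.0667 for 2 against 4, so none was run.

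The members and the 34 gene lists were chosen with earlier results of these data known. The naming rule took, in each direction, the 12 members with the largest smaller-of-both fold change, up to 4 members per list, the 6 with 20 kPa furthest beyond glass and the 4 of highest mean CPM, and 15 fixed genes. Other genes are named as examples of their list, run or class and were chosen after their values were seen. Same-numbered libraries did not deviate together (correlations of -0.03, -0.02 and -0.03), so they were not paired. Alternatives were other scalings, DESeq2 1.42.0, limma-voom 3.58.1, other filters and thresholds, a replicate block and leaving out each library. Counts per list under these alternatives were added after seeing the data.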

Additional observations from a re-analysis of the deposited data

How the results depend on the processing

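No gene that was a member both in the main run and in an alternative changed direction between them. Members that dropped out under an alternative were not checked for direction as a set. The higher genes numbered 791 to 1103 and the lower genes 388 to 854 under other scalings, tools and filters. DESeq2 gave 388 lower genes, 31 higher genes with 20 kPa below glass, 150 lower genes with 20 kPa below glass, and 543 genes with 20 kPa within the band of glass. With total counts the higher genes with 20 kPa below glass numbered 25. At an adjusted p of 0.01 there were 357 lower genes, 20 higher and 126 lower genes with 20 kPa below glass, and 506 in the band. At least 2-fold differences from both left 217 higher and 48 lower genes, of which 128 higher genes had 20 kPa above and 2 below glass, 16 lower genes had it below and 7 above, and 14 genes were in the band. Leaving out 1 library gave 686 to 1191 higher and 307 to 896 lower genes, 366 to 648 and 26 to 46 higher genes with 20 kPa above and below glass, 40 to 57 and 106 to 364 lower genes with it above and below, and 393 to 1083 in the band. The lowest counts came without a gel library, where 56.3% to 62.8% of the 1716 genes remained members; without a glass library 90.6% to 94.2% did. With the replicate block, 1016 higher and 603 lower genes met the rule, and 93.9% of the set was retained; DESeq2 retained 68.6%. The glycolysis and hypoxia list kept 20 to 23 higher genes and the NF-kB list 15 to 18, except at 2-fold, where 4 and 7 were left. Of the higher genes 33 had 3 counts or fewer on glass, where a fold is not measured.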

Other observations

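Stress-response lists held members with mixed roles. Of 16 NRF2 targets, which answer oxidants, 7 (43.8%) were higher on 1 kPa than on both others and 1 (6.25%) was lower. Of 20 ATF4 targets, which answer amino acid shortage, 6 (30%) were higher and none was lower. Among all tested genes 6.62% were higher and 4.04% lower. Sod2, the mitochondrial superoxide dismutase and also a target of NF-kB, had 470.4 and 480.1 CPM on 1 kPa, against 215 and 209.7 on 20 kPa and 75.8 and 76.5 on glass. Slc7a11, the cystine importer that both pathways drive, had 2.73 and 3.42 CPM on glass, then 5.65 and 4.36 on 20 kPa and 17.5 and 18.9 on the soft gel. The other ATF4 targets Trib3, Chac1 and Asns, chosen after their values were seen, were no members. Nqo1, a common marker of NRF2 activity, was the lower gene: it had 46.2 and 49.3 CPM on 1 kPa, against 68.4 and 66.6 on 20 kPa and 73.6 and 76.7 on glass. Gclm, also chosen after its values were seen, was no member either.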
